A study of Mus musculus with 4 samples.

Results

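The threonine, glycine and one-carbon set comprised 10 genes, Tdh, Gcat, Gldc, Amt, Gcsh, Shmt1, Shmt2, Mthfd1, Mthfd1l and Mthfd2, chosen by symbol from the 19797 symbols of the RefSeq-based table. Each symbol was found, and all 10 had a mean of at least 1 FPKM, which placed them among the 12050 genes tested. They were measured by RNA-seq of total RNA from MC1-ZE7, an embryonic stem (ES) cell line whose strain is given as MC1 (129S6/SvEvTac), with the fluorescent protein Emerald as a reporter for transcription of Zscan4, a gene cluster of the 2-cell embryo. All cells were grown without feeders on gelatin, in medium with serum and leukemia inhibitory factor, and were separated by flow cytometry into an Emerald-positive fraction (Em+, named as the high fraction) and an Emerald-negative fraction (Em-). Each fraction gave 2 libraries, whose values are given below in the order of replicates 1 and 2. Cells sorted as positive and as negative for the Zscan4 reporter are thus set against each other. The fractions therefore share the line, the reporter and the medium, and differ by the gate on Emerald. Whether the libraries within a fraction stem from different cultures or sorts is not in the labels, and p-values therefore reflect no more than the spread between the libraries, possibly a technical one. Since these are sorted populations, fewer cells that express a gene and less RNA per cell cannot be told apart.

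Mouse ES cells are known for a strong use of threonine. In mitochondria, threonine dehydrogenase (Tdh) and glycine C-acetyltransferase (Gcat) convert threonine to glycine and acetyl-CoA, and the glycine cleavage system, with the P protein Gldc, the T protein Amt and the lipoyl carrier Gcsh, passes a carbon of glycine to tetrahydrofolate. Serine hydroxymethyltransferases make the same 5,10-methylenetetrahydrofolate from serine, in the cytosol (Shmt1) and in mitochondria (Shmt2). Mthfd2 and Mthfd1l carry that carbon on to formate in mitochondria, and Mthfd1 takes up formate in the cytosol, where the folate carbon goes into purines, thymidylate and methionine.

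Counts in RefSeq genes ranged from 16468218, in Em+ replicate 2, to 18953217, in Em- replicate 2. Em+ replicate 2 also had the smallest share of its reads in RefSeq genes, 43.45% against 49.01 to 51.15% in the others. Rn45s, a ribosomal RNA precursor entry, took 7.95% of the counts of Em+ replicate 2 and 3.93 to 4.33% of the others. The 6 Zscan4 genes had 3550 counts or more in each Em+ library and at most 43 in each Em- library, which is the direction of the titles and the cell type field and the opposite of the description field. ES cell markers, such as Pou5f1 and Sox2, summed to 1396 to 2009 FPKM, lowest in Em+ replicate 2, and of these 8 genes Nanog was called higher in Em+ (log2 fold change 0.48). The lineage lists summed to 2.65 to 3.06 FPKM for 7 endoderm genes, 3.48 to 4.14 for 6 mesoderm genes, 10.4 to 13.8 for 6 neural genes and 7.33 to 8.38 for 6 trophoblast genes, and of the 7 of these that were tested the neural gene Neurod1 was called, lower in Em+ (-0.53). Of 8 fibroblast genes, 4 had an entry, and their sum was 6.18 and 5.07 FPKM in Em+ and 3.24 and 3.49 in Em-. Thy1, a surface protein gene and the 1 of these that was tested, was called higher in Em+ (0.89). Col3a1, Postn, Dcn and Lum of the same list had no entry, which is not a measured absence. The part of other cell types or of Em+ replicate 2 in the values below was not tested beyond leaving that library out.

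Across the set, transcripts were present at well over the filter in both fractions. Tdh, with the largest fold change of the 10, was the single gene that passed the test, lower by 19.5% in Em+ cells, and none was higher. Over all 12050 genes, 4.64% passed in either direction (p under 0.05 after Benjamini-Hochberg adjustment, by the quasi-likelihood test of edgeR), 3.82% higher and 0.822% lower in Em+. With library totals in place of TMM (trimmed mean of M values) scaling these calls, 460 higher and 99 lower, became 334 higher and 293 lower, and the median log2 fold change of all genes moved from 0.003 to -0.156. At an unadjusted p under 0.05, 4 of the 10 genes were lower and 0 higher, against 10.7% and 14.5% of all genes. The log2 fold change (Em+ over Em-) was negative for 8 genes and positive for 2, and its median over the set was -0.16. For 6 genes both Em+ libraries lay below both Em- libraries, and for 1, Shmt2, above, whereas 29.7% of all genes separated in each direction.

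**Figure D1:**
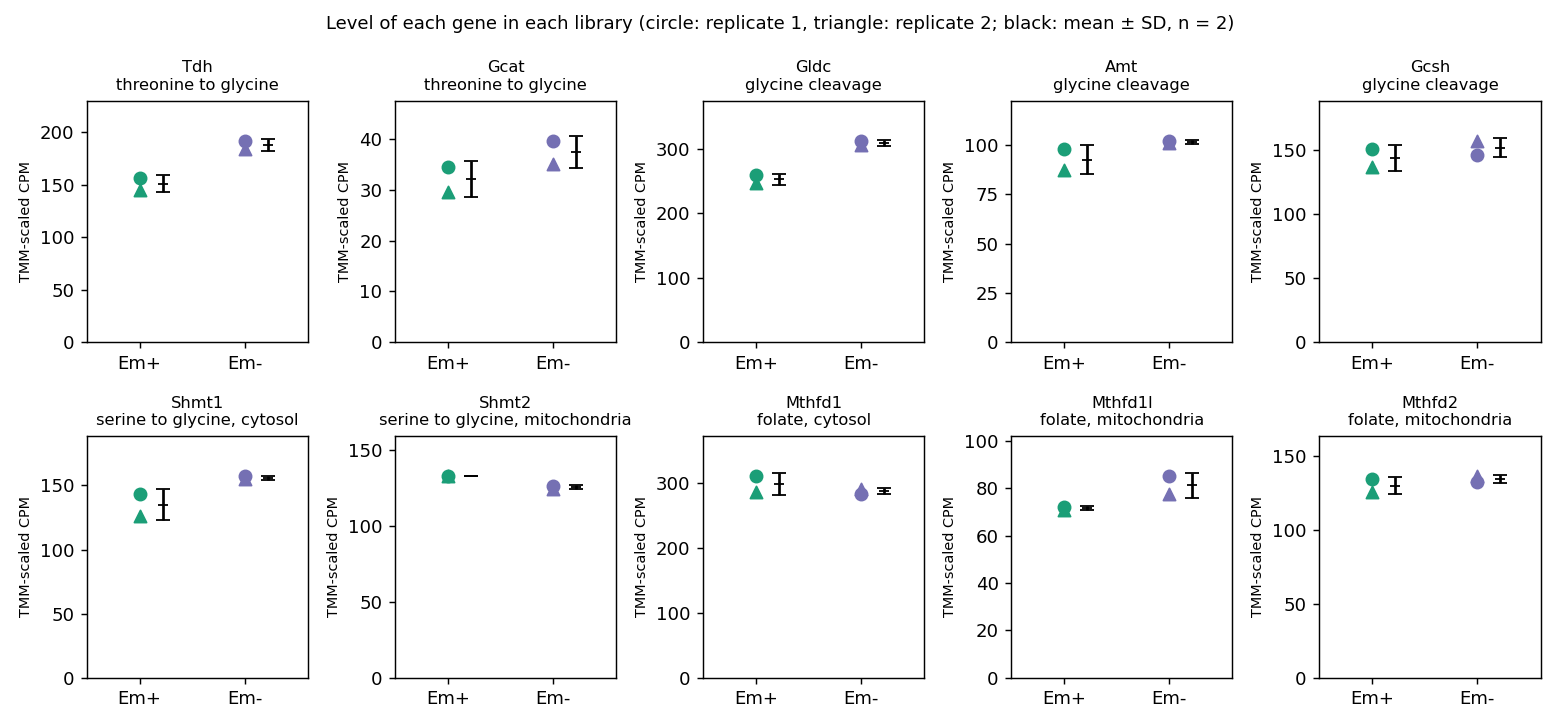
TMM-scaled CPM, a count as a share of its library (vertical axis, from 0), of each of the 10 genes in each library, with the mean and SD of 2 libraries beside the points. Gldc (259 and 247 in Em+, 313 and 306 in Em-) and Tdh separate the fractions, while the points of Gcsh, Mthfd1 and Mthfd2 overlap.

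Per length, the highest level was that of Gcsh, with a mean of 53.2 FPKM over the 4 libraries and a range of 42.6 to 59.6. Tdh followed at 43.6 FPKM (32.3 to 51.7), Mthfd1 at 42.3 (36.0 to 45.8), Gldc at 36.0 (27.2 to 41.9), Amt at 35.4 (27.6 to 39.1) and Shmt1 at 34.1 (25.6 to 38.6). Mthfd2 had 30.8 FPKM (25.4 to 33.5) and Shmt2 26.9 (24.1 to 28.3). Mthfd1l at 9.87 FPKM (7.92 to 11.5) and Gcat at 9.50 (6.97 to 11.3) came last. Each neighbouring pair in this order overlapped over the libraries, except that the lowest value of Shmt2 stayed above the highest of Mthfd1l. The first 8 genes lay at percentiles 87.4 to 95.1 of the tested genes, and Mthfd1l and Gcat at percentiles 61.8 and 60.7. FPKM of Em+ replicate 2 was the lowest of the 4 libraries for all 10 genes. FPKM is taken per total read, of which this library had a smaller share in RefSeq genes, and the fractions were therefore compared on TMM-scaled CPM, that is, counts relative to the library's total in tested genes.

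Tdh, which catalyses the first step of threonine breakdown, lies on chr14:63492347-63509092 (mm10) and has 1 RefSeq transcript. It had 157 and 145 CPM in Em+ replicates 1 and 2 and 192 and 184 CPM in Em- replicates 1 and 2. Both Em+ values were below both Em- values. The means were 151 ± 7.96 and 188 ± 5.82 CPM (SD, n = 2 each), a log2 fold change of -0.31 (SE 0.07, 95% interval -0.47 to -0.15, Benjamini-Hochberg adjusted p = 0.0480, quasi-likelihood test of edgeR). The call sat just inside the threshold. With Em- replicate 1 left out the log2 fold change was -0.29, and with Em- replicate 2 left out -0.34. With Em+ replicate 1 left out it was -0.37, and with Em+ replicate 2 left out -0.26. Over 16 alternatives it stayed negative, from -0.48 to -0.26, with adjusted p from 0.000223 to 0.425.

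The Tdh value also has to be read beside Gm13929, a transcribed processed pseudogene that is a near copy of the Tdh mRNA. It lies on another chromosome, at chr2:112000180-112001304, and matched the Tdh transcript at 97.1% over 1125 aligned columns, with 28 mismatches, 5 gap bases and a longest identical run of 143 bases. The 150 bases below are a stretch of the Tdh coding sequence (transcript bases 894 to 1043) and the same stretch of the copy (bases 498 to 647), from GENCODE transcripts. They are shown because the gene and its copy differ there at no more than the 5 positions in capitals.
Tdh: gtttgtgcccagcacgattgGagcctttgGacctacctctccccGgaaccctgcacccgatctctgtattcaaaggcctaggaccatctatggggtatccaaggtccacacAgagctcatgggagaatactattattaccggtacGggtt
Gm13929: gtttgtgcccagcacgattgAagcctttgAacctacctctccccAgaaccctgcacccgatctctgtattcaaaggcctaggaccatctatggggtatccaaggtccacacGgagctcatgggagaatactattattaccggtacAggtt

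The copy has no entry under that symbol in the RefSeq table and is listed in the Ensembl table. There Gm13929 had 5094 and 3764 counts in Em+, and in Em- it had 6232 and 6328. Its FPKM was 124 and 88.5 in Em+ and 155 and 151 in Em-, where Tdh, summed over its 6 models in the same table, had 99.8 and 77.0 in Em+ and 131 and 122 in Em-. The ratio of copy to gene within that table was 1.24 and 1.15 in Em+ and 1.18 and 1.23 in Em-. Against the RefSeq FPKM of Tdh, which rests on 1 model, the ratio was 3.04 and 2.74 in Em+ and 2.99 and 3.04 in Em-. The Ensembl sum adds overlapping models of 556 to 1881 bases, each divided by its own length, and is not itself a level per length. The model of 1881 bases alone had 20.9 and 15.1 FPKM in Em+ and 26.6 and 25.7 in Em-. The size of the ratio thus depends on the table and on the summing of models. By either ratio the copy was listed above the gene in every library, and the ratio was lowest in Em+ replicate 2. Its log2 fold change in the fit of that table was -0.38 (SE 0.10, adjusted p = 0.0766, edgeR), next to -0.39 (SE 0.09, adjusted p = 0.0551) for Tdh. With the copy's counts added to Tdh, an alternative chosen after seeing the data, it was -0.38 (adjusted p = 0.0743). None of the 3 passed. How reads that match both genes were assigned is not given in the sources used here, and reads of the gene and of its copy cannot be told apart from these tables.

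**Figure D2:**
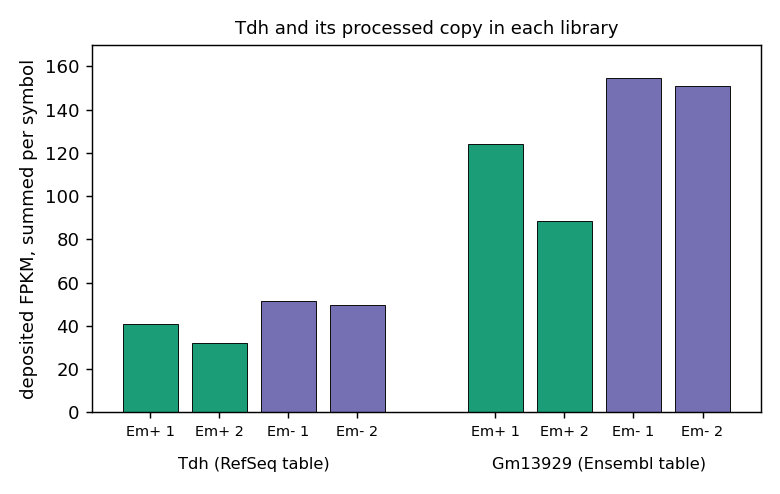
Deposited FPKM (vertical axis, from 0) of Tdh in the RefSeq table and of its processed copy Gm13929 in the Ensembl table, 1 bar per library. The copy reaches 88.5 to 155 FPKM and the gene 32.3 to 51.7, with Em+ bars below Em- bars in both, and Tdh summed over models in the Ensembl table, not drawn, reaches 77.0 to 131.

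The Ensembl table splits Tdh over 6 transcript models. The protein-coding model held 36.49 to 37.72% of the counts of Tdh over the 4 libraries. The RefSeq model of the same span had 2812 counts in Em+ replicate 1, where this Ensembl model had 1436. The models overlap and the assignment of shared reads is not given, so these shares do not measure transcript use. A model with a retained intron held 10.15% and 14.07% in Em+ and 10.51% and 10.56% in Em-. It was the 1 model of the 6 whose count was higher in Em+ replicate 2, at 415, than in Em+ replicate 1, at 388. Em+ replicate 2 is also the library with the lowest share of reads in RefSeq genes. An antisense gene, Gm17232, shares 66 exon bases with Tdh.

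Gcat, which splits the product of Tdh into glycine and acetyl-CoA, has 2 RefSeq models that together span chr15:79030874-79042531. The plain model ends at 79038356, and the rest of the span belongs to the model that runs on into Galr3. Gcat had 34.6 and 29.6 CPM in Em+ and 39.6 and 35.1 CPM in Em-. The lower Em- value exceeded the higher Em+ value by less than the spread within either fraction. The log2 fold change of -0.22 (SE 0.10) did not pass (adjusted p = 0.236, edgeR). The ratio of Tdh to Gcat, on FPKM, was 4.27 and 4.64 in Em+ and 4.56 and 4.91 in Em-, so that the fractions overlapped. Of the RefSeq counts of Gcat, 98.1 to 98.9% sat on a model that runs through into the next gene, Galr3, with which it shares 363 exon bases. Of its Ensembl counts, 97.5 to 99.0% sat on the plain Gcat model instead. Galr3, a galanin receptor, had 4 to 11 counts of its own.

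None of the 3 glycine cleavage genes passed the test, and Gldc came nearest to it. Gldc, the decarboxylase that starts the reaction, lies on chr19:30098441-30175441. It had 259 and 247 CPM in Em+ replicates 1 and 2 and 313 and 306 CPM in Em- replicates 1 and 2. These values lay further apart between fractions than within either. The means were 253 ± 8.96 and 310 ± 4.42 CPM (SD, n = 2 each), and the log2 fold change of -0.29 (SE 0.06, 95% interval -0.44 to -0.14) missed the threshold narrowly (adjusted p = 0.0515, edgeR). It passed under 6 of 15 alternatives, among them DESeq2, no filter on low values, edgeR's own filter and the omission of either Em+ library. Over all 15 the log2 fold change ran from -0.45 to -0.26 and the adjusted p from 0.000132 to 0.486. Of its transcript, stretches of 200 to 299 bases match 53 other genes at 90% identity or more.

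Amt, the aminomethyltransferase that hands the carbon to folate, lies on chr9:108296922-108301597. It had 98.0 and 87.4 CPM in Em+ and 102 and 101 CPM in Em-. The log2 fold change of -0.13 (SE 0.08) did not pass (adjusted p = 0.314, edgeR), and it was -0.05 with Em+ replicate 2 left out and -0.22 with Em+ replicate 1 left out. The 2 annotations differed in the reads they counted for Amt. Its 1 RefSeq model had 1758 and 1384 counts in Em+ and 1860 and 1916 in Em-. In the Ensembl table the protein-coding model had 56 and 54 counts in Em+ and 96 and 82 in Em-. A retained-intron model there had 587 and 476 in Em+ and 663 and 629 in Em-. That was 70.8 to 78.6% of the Ensembl counts, whose total was below the RefSeq count in each library. The share therefore does not cover all reads of Amt. On that table, with all models summed and fewer reads, the log2 fold change was -0.24 (adjusted p = 0.179, edgeR). Gcsh, the carrier of the lipoyl arm on chr8:116981828-116993449, had 150 and 136 CPM in Em+ and 146 and 157 in Em-. The fractions overlapped, with a log2 fold change of -0.08 (SE 0.08, 95% interval -0.25 to 0.10, adjusted p = 0.537, edgeR). Of 4 processed pseudogenes with a match of at least 200 bases to Gcsh, those with an Ensembl entry had 0 to 2 (Gm15047) and 8 to 18 counts (Gm12564).

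Dld, the dihydrolipoyl dehydrogenase that reoxidises the carrier and also serves other complexes, had 122 and 110 CPM in Em+ and 113 and 118 CPM in Em-, a log2 fold change of 0.005. Within a library the ratio of Gldc to Gcsh, on FPKM, was 0.609 and 0.639 in Em+ and 0.756 and 0.691 in Em-. Both Em+ ratios lay below both Em- ratios. With 2 against 2 libraries an exact two-sided permutation test cannot give a p below 0.333, so the ratios are given without one.

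The fold changes of the cytosolic and the mitochondrial serine hydroxymethyltransferase had opposite signs, a difference that was not tested. Shmt1, the cytosolic enzyme on chr11:60788897-60811265, had 144 and 126 CPM in Em+ replicates 1 and 2 and 157 and 155 CPM in Em- replicates 1 and 2. Shmt2, the mitochondrial enzyme on chr10:127517123-127522444, had 133 CPM in both Em+ libraries and 127 and 125 CPM in Em-. Em+ was thus below Em- in all library pairs for Shmt1 and above in all for Shmt2. Neither passed the test: the log2 fold change was -0.21 (SE 0.08, adjusted p = 0.153) for Shmt1 and 0.08 (SE 0.06, 95% interval -0.06 to 0.22, adjusted p = 0.441) for Shmt2, by edgeR. The sign of Shmt2 turned with library totals as scaling, at -0.08, where all genes shifted by a similar amount. The ratio of Shmt2 to Shmt1, which is free of library scaling, was 0.828 and 0.941 in Em+ and 0.722 and 0.721 in Em-. Its spread within Em+ was 0.0799 (SD, n = 2), and the higher of these ratios was that of Em+ replicate 2. Smcr8, on the opposite strand, shares 184 exon bases with Shmt1, and Ndufa4l2 shares 32 with Shmt2. A processed pseudogene of Shmt2, Gm15544, had 150 to 194 counts in the Ensembl table.

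**Figure D3:**
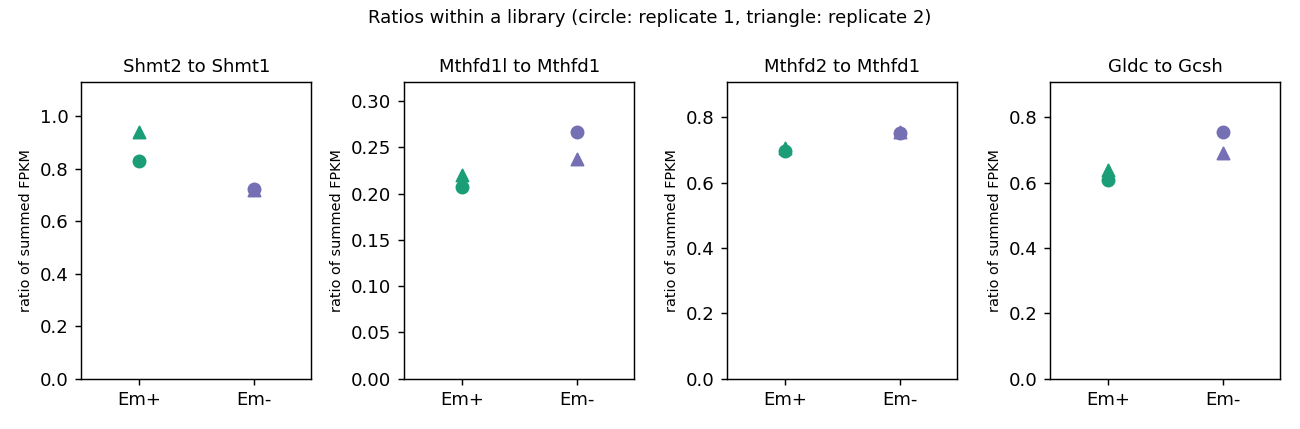
Ratio of summed FPKM (vertical axis, from 0) for 4 pairs of enzymes in each library. Shmt2 to Shmt1 was higher in Em+ (0.828 and 0.941) than in Em- (0.722 and 0.721), and the other pairs drawn were lower in Em+. The ratio of Tdh to Gcat, not drawn, overlapped between the fractions (4.27 and 4.64 in Em+, 4.56 and 4.91 in Em-). The ratios were not tested, and the share of all gene pairs that separate in this way was not computed.

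Of the 3 genes that carry the one-carbon unit between formate and methylenetetrahydrofolate, none passed the test. Mthfd1, the trifunctional cytosolic enzyme on chr12:76255232-76319820, had 310 and 287 CPM in Em+ and 284 and 290 CPM in Em-, with a log2 fold change of 0.06 (SE 0.07, adjusted p = 0.632, edgeR). Mthfd2, the mitochondrial dehydrogenase and cyclohydrolase on chr6:83305704-83317604, had 134 and 126 CPM in Em+ and 133 and 137 CPM in Em-, with a log2 fold change of -0.05 (SE 0.07, 95% interval -0.20 to 0.11, adjusted p = 0.672). For both genes the fractions overlapped. Mthfd1l, the mitochondrial formate-tetrahydrofolate ligase on chr10:3973075-4167081, had 72.2 and 71.0 CPM in Em+ and 85.2 and 77.7 CPM in Em-. Its Em+ values lay below its Em- values, and the log2 fold change of -0.19 (SE 0.08) had an adjusted p of 0.189 (edgeR).

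The ratio of Mthfd1l to Mthfd1 was 0.207 and 0.220 in Em+ and 0.267 and 0.238 in Em-. That of Mthfd2 to Mthfd1 was 0.695 and 0.706 in Em+ and 0.752 and 0.755 in Em-. In both, the mitochondrial enzyme stood lower relative to the cytosolic one in both Em+ libraries, whereas for serine hydroxymethyltransferase it stood higher. The Mthfd ratios share Mthfd1 as denominator and are not independent, and none of these ratios was tested. Mthfd2l, a second mitochondrial dehydrogenase, was below the filter, at 0.20 to 0.50 FPKM.

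**Figure D4:**
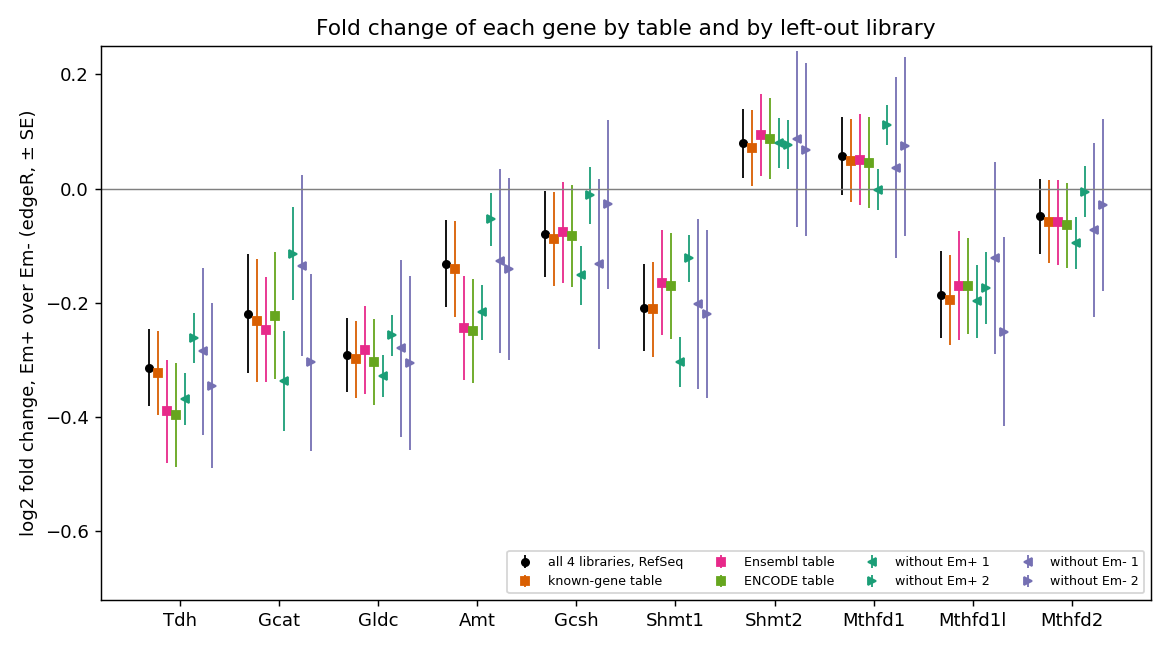
Log2 fold change of Em+ over Em- with its SE (vertical axis) for each of the 10 genes, from all 4 libraries in the RefSeq table, from the other 3 tables, and with each library left out. Tdh ran from -0.40 to -0.26 and Gldc from -0.33 to -0.26 in this plot, and Mthfd1 moved on both sides of 0.

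The library that was left out moved the count of calls in the set more than any other choice. Without Em+ replicate 1, edgeR called 7 of the 10 genes lower, Tdh, Gcat, Gldc, Amt, Gcsh, Shmt1 and Mthfd1l, while 19.5% of all genes were then called lower. Without Em+ replicate 2 it called 2, Tdh and Gldc, beside 6.9% of all genes. Without Em- replicate 1 or without Em- replicate 2 it called 0, beside 0.274% and 0.606%. In 9 of the 10 genes CPM was lower in Em+ replicate 2 than in Em+ replicate 1, against 51.4% of all genes, and Shmt2 was the exception. Tdh and Gldc were also the genes called lower by DESeq2 (1.25% of all genes), without the filter on low values (1.47%) and with filterByExpr (1.92%). With the size factors of DESeq2 in edgeR the call was Tdh (0.888% of all genes lower). No gene of the set was called lower with library totals as scaling (2.43% of all genes), by limma on log2(FPKM + 1) (0.556%) or log2(FPKM + 0.1) (0.448%), or in the known-gene (0.493%), ENCODE (0.686%) and Ensembl tables (0.634%).

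RefSeq promoter sequences (GRCm38.p6, the 250 bases before the start) were held for 9 of the 10 genes. Tdh, the gene that passed the test, had no entry and was not searched. The promoters of Gldc and Shmt1, whose Em+ libraries lay below their Em- libraries, and of Shmt2, with the opposite order, are given 5′ to 3′ on the strand of the gene. None of these genes passed the test. Gcat, Amt and Mthfd1l, whose promoters are not printed, also had both Em+ libraries below both Em- libraries. A link of promoter letters to direction was not tested. Capitals mark matches to the words searched, on either strand, namely CCAAT, the GC box GGGCGG and the NRF1 core GCATGCG.
Gldc, chr19:30175442-30175691, minus strand: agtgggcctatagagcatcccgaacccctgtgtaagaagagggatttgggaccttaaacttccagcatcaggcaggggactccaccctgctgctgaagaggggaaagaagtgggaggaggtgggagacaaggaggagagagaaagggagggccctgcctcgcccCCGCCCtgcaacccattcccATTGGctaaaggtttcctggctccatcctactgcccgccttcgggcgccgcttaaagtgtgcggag
Shmt1, chr11:60811266-60811515, minus strand: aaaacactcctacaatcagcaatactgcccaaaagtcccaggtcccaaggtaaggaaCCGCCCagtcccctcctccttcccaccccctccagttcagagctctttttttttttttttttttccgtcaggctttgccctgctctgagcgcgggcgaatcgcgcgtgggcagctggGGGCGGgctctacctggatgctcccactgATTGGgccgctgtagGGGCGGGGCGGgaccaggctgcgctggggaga
Shmt2, chr10:127522445-127522694, minus strand: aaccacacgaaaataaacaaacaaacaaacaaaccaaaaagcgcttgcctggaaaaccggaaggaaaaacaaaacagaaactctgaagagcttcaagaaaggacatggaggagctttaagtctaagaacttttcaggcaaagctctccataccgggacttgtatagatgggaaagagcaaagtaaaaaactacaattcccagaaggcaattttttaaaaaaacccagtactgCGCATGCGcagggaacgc

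The GC box was in 7 of the 9 promoters and in 32.74% of 32851 promoters, and CCAAT was in 6 of the 9 and in 33.85%. Shmt2 held neither. It held GCATGCG, which was in 3.02% of promoters, as overlapping matches on both strands, and had 40.8% GC against a median of 52.4%. The E-box CACGTG (6.02% of promoters), TATAAA (12.37%) and TGATGNAA (3.45%), the composite element bound by ATF4 with a CEBP partner, were in 0 of the 9. TGCACAC (3.67%) was in 1, that of Gcsh. The promoters other than that of Shmt2 had 52.4 to 64.4% GC, and the shares over all promoters were not matched for base composition or expression. These matches describe the letters in the window.

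The wider network was read from 87 genes in 8 lists, of which 71 were tested, 15 were below the filter and 1 (Mthfsl) had no entry. Of the 71, 1 was higher and 3 were lower in Em+, beside 3.82% and 0.822% of all genes, and their median log2 fold change was -0.03 against 0.003 for all genes. Prps1, a phosphoribosyl pyrophosphate synthetase that starts purine synthesis, had 147 and 138 CPM in Em+ and 98.0 and 101 CPM in Em-. It rose by 0.52 on the log2 scale (SE 0.07, adjusted p = 0.00489, edgeR). With library totals as scaling it was 0.36 (adjusted p = 0.156). None of the other 12 purine genes passed, and their values included -0.34 for Paics (adjusted p = 0.0736) and -0.15 for Gart (adjusted p = 0.249).

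Aldh1l1, the cytosolic formyltetrahydrofolate dehydrogenase that removes one-carbon units as carbon dioxide, had 25.97 and 26.91 CPM in Em+ and 35.3 and 36.3 CPM in Em-. It fell by 0.44 on the log2 scale (SE 0.08, adjusted p = 0.0218, edgeR), the 1 call among 12 other folate enzymes tested. Leaving out Em- replicate 1 gave an adjusted p of 0.0899, leaving out Em- replicate 2 one of 0.140. It lay between 0.0898 and 0.175 in the other 3 annotations.

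Of 8 tested transcription factors and targets of the amino acid response, 2 were lower and 0 higher, beside 0.822% and 3.82% of all genes, and 6 had a negative log2 fold change, as did 5937 of all 12050 genes. Ddit3, a stress transcription factor, had 48.1 and 42.8 CPM in Em+ and 58.8 and 63.6 CPM in Em-, and fell by 0.43 (SE 0.09, adjusted p = 0.0424, edgeR). The call of Ddit3 ended without Em- replicate 2 (adjusted p = 0.145) and in the other 3 annotations (0.0507 to 0.331). Mycn, an ES cell paralogue of Myc, had 155 and 147 CPM in Em+ and 199 and 189 CPM in Em-, and fell by 0.36 (SE 0.07, adjusted p = 0.0252, edgeR). The call of Mycn ended without Em- replicate 1 (adjusted p = 0.297) or without Em- replicate 2 (adjusted p = 0.0950). By limma on log2(FPKM + 1) the adjusted p was 0.143 for Ddit3, 0.175 for Mycn and 0.318 for Prps1. Atf4, a transcription factor of amino acid shortage, had a log2 fold change of -0.25 (adjusted p = 0.121), and Asns, the asparagine synthetase it controls, one of 0.07 (adjusted p = 0.625). Atf3, a stress transcription factor of the same list named here after its values were seen, had the highest log2 fold change of the 71 genes, 0.57 (SE 0.15), with 6.08 and 6.51 CPM in Em+ and 4.01 and 4.43 CPM in Em-, and did not pass (adjusted p = 0.0810, edgeR).

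In serine synthesis 0 of 3 genes passed. Psat1, the aminotransferase of that pathway, had 227 and 206 CPM in Em+ and 258 and 277 CPM in Em-, with a log2 fold change of -0.31 (adjusted p = 0.0637, edgeR). No gene passed among 8 of threonine and serine use, 5 glycine cleavage partners and lipoylation genes, 9 of the methionine cycle and transsulfuration and 13 transporters. The transfer RNA synthetases Gars (glycine) and Tars (threonine) had log2 fold changes of -0.17 and -0.14 (adjusted p = 0.171 and 0.244), and the amino acid transporter Slc38a4 one of -0.26 (adjusted p = 0.0875). At an unadjusted p under 0.05, 16 of the 71 genes were lower and 4 higher, where all genes had 10.7% and 14.5%.

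**Figure D5:**
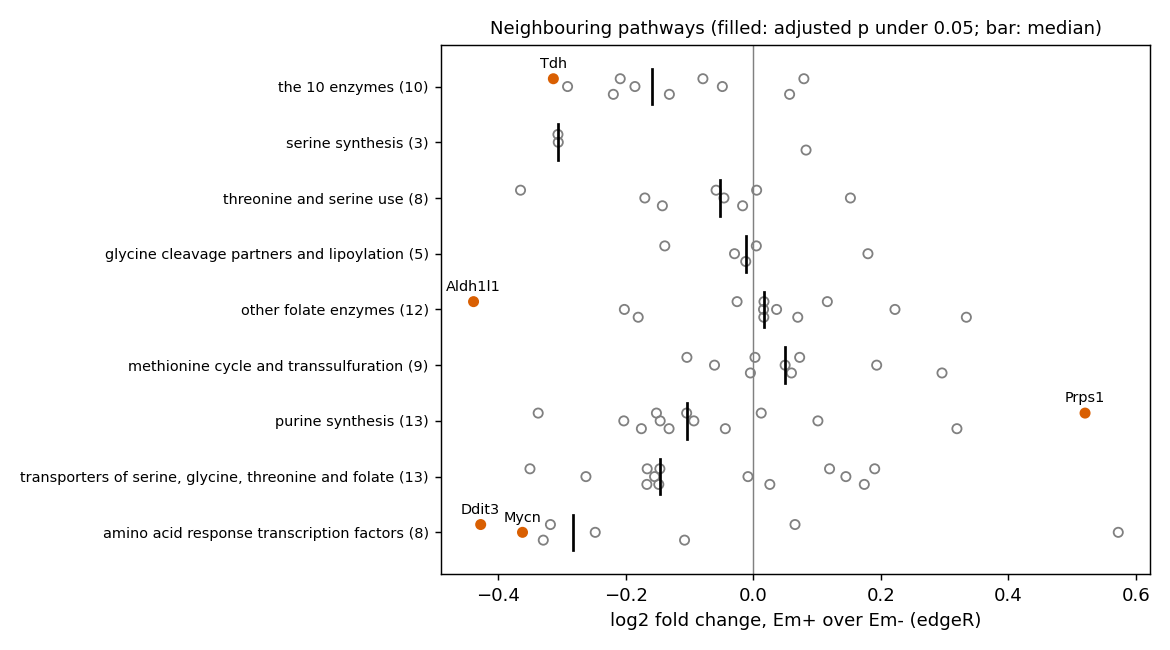
Log2 fold change of Em+ over Em- (horizontal axis) of each tested gene of the set and of the 8 neighbouring lists, 1 circle per gene, with the number tested in brackets. Filled circles passed the test: Tdh, Aldh1l1, Ddit3 and Mycn to the left of 0, and Prps1 at 0.52 to the right.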

How the data were processed

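RNA was measured in 2 Em+ and 2 Em- libraries, grouped by title. The authors deposited 4 tables (RefSeq, known-gene, ENCODE and Ensembl models) with, per the file headers, a raw count and an FPKM value per transcript and library. The submitters' processing notes name Bowtie2 (version not given) and mm10. The counting program, annotation releases, use of strand and treatment of reads with several matches were not given in the sources used here, so values of genes with near copies or overlaps are uncertain. The FPKM values the authors deposited equal the count divided by transcript length and by a library total.

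The deposited RefSeq and Ensembl count columns of Em- replicate 1 hold only 0, and its counts were recomputed from FPKM (0.0005 added for truncation). The same step returned 99.95 to 99.97% of the deposited RefSeq counts of the other libraries exactly. For Tdh, Amt, Gcsh, Mthfd1l and Mthfd2 the result equalled the known-gene count of Em- replicate 1. For the other 5 it did not: 721 against 723 (Gcat), 5690 against 5696 (Gldc), 2860 against 2921 (Shmt1), 2304 against 2303 (Shmt2) and 5159 against 5117 (Mthfd1). Of these, Gldc, Shmt1 and Mthfd1 also differed between the 2 tables in Em+ replicate 1, where both counts were deposited. Gcat and Shmt2 differed in Em- replicate 2, where both were deposited as well. There the smaller Gcat model had 7 RefSeq against 8 known-gene counts, and the larger Shmt2 model 2225 against 2224.

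Counts were summed per symbol. Genes whose mean FPKM reached 1 (12050) were fitted with edgeR 4.0.16 (R 4.3.3): TMM, glmQLFit and glmQLFTest, two-sided, no covariate, Benjamini-Hochberg adjustment over all genes, threshold 0.05. The SE came from the F statistic, and the common biological coefficient of variation was 0.0731. Alternatives were other scalings, DESeq2 1.42.0, limma 3.58.1 on log2(FPKM + 1) and log2(FPKM + 0.1), other filters, the other tables, a replicate block and each library left out. Near copies were sought with blastn 2.17.0 in GENCODE transcripts (at least 200 bases at 90% identity). Reads carry no molecular identifiers. With 2 libraries per fraction, precision covers the spread between these libraries only. For each gene edgeR moderates that spread with the spread of all genes tested. Named pathway genes are those past the threshold and, of the others, the 8 with the highest FPKM. The ratios of Gldc to Gcsh and Tdh to Gcat were added after seeing the data, and Dld, Mthfd2l and the marker genes are named outside that rule. The members, lists and tests were chosen with earlier results of these data known.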

Additional observations from a re-analysis of the deposited data

How the results depend on the processing

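The direction of Tdh, Gcat, Gldc, Amt, Gcsh, Shmt1, Mthfd1l and Mthfd2 held under each of their alternatives. The sign turned for Shmt2 (-0.081 with library totals, -0.082 and -0.085 with limma), for Mthfd1 (-0.098 with library totals, -0.11 with limma, -0.0015 without a filter, and -0.0015 to 0.11 with 1 library left out) and for Asns (-0.088 with library totals, -0.10 with limma, and -0.021 to 0.15 with 1 library left out). Limma on FPKM carries the same shift of all genes as library totals, a median of -0.135 with a pseudocount of 1 and -0.16 with 0.1.

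The 559 genes called became 293 and 269 with limma, 1178 with no filter, 1247 with edgeR's filterByExpr, 1552 with the replicate block and 490 to 4992 with 1 library left out. In the set, the 1 gene lower became 0 with library totals, limma or another table, 2 with DESeq2, no filter, filterByExpr or the block, and 0 to 7 with 1 library left out. Of the pathway genes, the 1 higher became 0 with library totals or limma, 2 with the block and 1 to 9 with 1 library left out. The 3 lower became 6 with DESeq2, no filter or filterByExpr, 1 with limma or another table, 8 with the block and 0 to 21 with 1 library left out. The shares of all genes moved too: 3.83% were lower and 9.05% higher with the block, and 19.5% and 21.9% without Em+ replicate 1, which gave the highest counts. The cause was not tested. Leaving out a library leaves 1 library in that fraction, assumed to vary like the other.

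The replicate numbers are not stated to pair libraries, and the deviations of libraries with the same number correlated at 0.044 over 10909 genes, so the block is an alternative only. With 2 libraries a fraction, even the narrowest 95% interval in the set, that of Shmt2, spanned -0.06 to 0.22 on the log2 scale, which limits the differences that can be seen.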
